A study of Mus musculus with 6 samples.

Results

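The genes described here are the enzymes of glycolysis, the transporters and regulators that set the flow of sugar through it, further targets of the hypoxia response outside glycolysis, and the oxygen-regulated alpha subunits of the hypoxia-inducible factors (HIF). They were taken from a list of names chosen with earlier results of these data known, and the rule applied no threshold on measured values. The 40 names stand for 39 genes, since Ero1l is an older name of Ero1a, and 36 of the 39 were measured among 19938 genes in all. A gene counted as measured when a probe set carried its symbol and no other, and the brightest such probe set over the arrays stood for the gene. No probe set was named for Gpi1 or Eno1, and Gapdh was named only on probe sets that carry several symbols.

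Expression was measured on 6 Affymetrix Mouse Gene 1.0 ST arrays, 3 from tumour-associated macrophages of PLX3397-treated mice and 3 from those of vehicle-treated mice. PLX3397 is an inhibitor of the receptor kinase CSF1R, on which macrophages depend for survival. All mice were of strain C57BL/6 and carried orthotopic tumours of Hepa1-6, a mouse hepatoma cell line, in the liver, and the macrophages were isolated by flow cytometric sorting. The sources used here give no age, dose or length of treatment. The replicates are called biological, but no label ties them to separate animals, so each p-value reflects the spread among these samples, which may be technical.

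When oxygen is plentiful, prolyl hydroxylases of the Egln family mark the HIF alpha subunits for destruction. When oxygen is short, or when inflammatory signals stabilise the protein, the alpha subunit pairs with Arnt and binds a short DNA core, ACGTG or GCGTG, near genes of glycolysis, glucose uptake, lactate export, mitochondrial turnover, collagen hydroxylation and pH control. In macrophages this programme accompanies activation as well as residence in poorly perfused tumour tissue. HIF alpha activity is set largely at the protein level, which arrays do not measure.

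Most of these genes were higher in macrophages from PLX3397-treated mice. At an adjusted p below 0.05 (limma, Benjamini-Hochberg over all genes), 28 of the 36 measured genes rose, 1 fell and 7 did not pass. Among all genes, 19.6% rose and 18.3% fell, 37.8% in either direction. Since the list was chosen with earlier results of these data known, this contrast is a description only. The median change of the 36 was 0.59 on the log2 scale, and that of all genes was 0.04; every change here is PLX3397 minus vehicle. The groups did not overlap for 29 of the 36, 28 of them higher, which held for 49.3% of all genes, 27.4% higher. Because bright genes were called more often, the counts were also read by brightness, the mean level over all 6 arrays. Of the 20 members with a mean level of 8 or more, 17 rose, against 33.3% of all 1975 genes that bright. Of the 16 dimmer members, 11 rose, against 18.0%. A rise on the PLX3397 arrays can itself lift a gene to that level: Egln3 and Pfkp averaged only 6.16 and 7.59 with vehicle. All 36 lay above the background level set by olfactory and vomeronasal receptor genes. In bulk RNA of sorted cells, fewer cells of a type and less RNA per cell cannot be told apart.

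**Figure D1:**
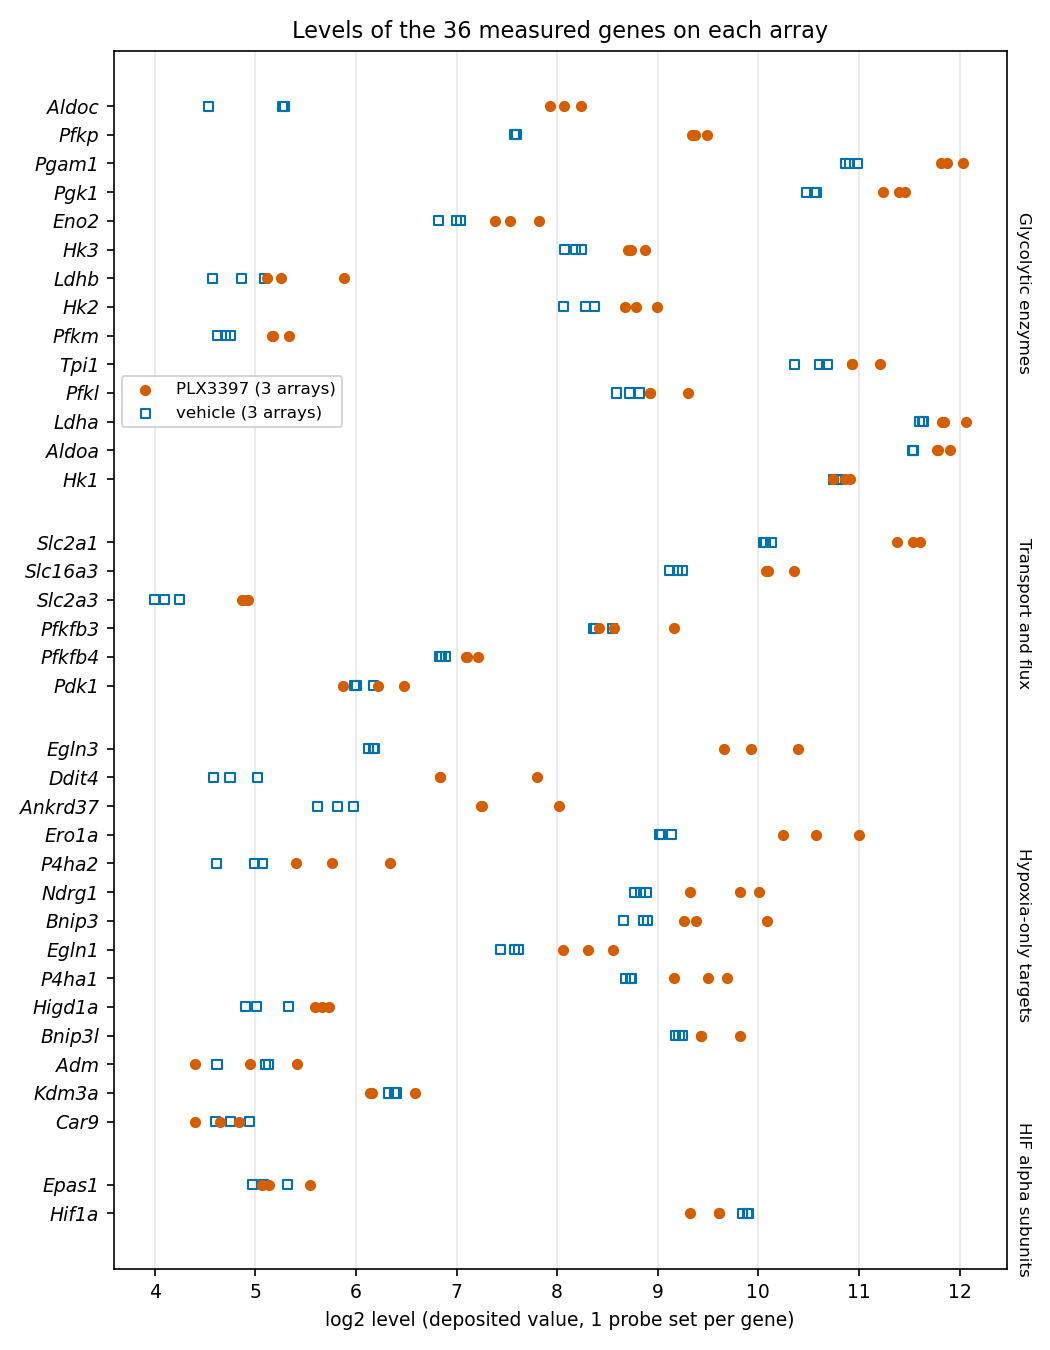
Deposited log2 level (horizontal axis) of the 36 measured genes, grouped by role, on each of the 3 PLX3397 arrays (filled circles) and the 3 vehicle arrays (open squares). The widest gaps between groups are those of Egln3 and Aldoc, and the groups overlap for 7 genes, among them Adm, Car9 and Hk1. Levels of different genes come from different probes and are not compared.

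Promoter sequences of the 5 genes with the largest rises are shown because they carry the strongest responses, and that of Car9 because it is a classical hypoxia target that did not pass the test. Each is the 250 bases before the gene's start, 5′ to 3′ on the gene's strand, taken from RefSeq on GRCm38.p6, with the HIF core motif ACGTG or GCGTG, read on either strand (CACGT or CACGC on the strand shown), in capitals. The windows are Egln3 (chr12:54203875-54204124, minus strand), Aldoc (chr11:78322823-78323072, plus strand), Ddit4 (chr10:59951771-59952020, minus strand), Pfkp (chr13:6648772-6649021, minus strand), Ankrd37 (chr8:45999851-46000100, minus strand) and Car9 (chr4:43506776-43507025, plus strand). A match is a description of letters, not a bound site.
Egln3: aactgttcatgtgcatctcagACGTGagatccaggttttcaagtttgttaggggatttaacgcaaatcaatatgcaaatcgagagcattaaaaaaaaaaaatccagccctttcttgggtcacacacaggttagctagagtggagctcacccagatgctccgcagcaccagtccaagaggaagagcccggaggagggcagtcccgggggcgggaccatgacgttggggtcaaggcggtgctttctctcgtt
Aldoc: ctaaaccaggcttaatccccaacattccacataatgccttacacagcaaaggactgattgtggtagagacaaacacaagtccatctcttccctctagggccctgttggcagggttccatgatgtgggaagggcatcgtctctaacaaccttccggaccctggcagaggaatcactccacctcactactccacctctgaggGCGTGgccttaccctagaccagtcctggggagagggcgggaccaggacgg
Ddit4: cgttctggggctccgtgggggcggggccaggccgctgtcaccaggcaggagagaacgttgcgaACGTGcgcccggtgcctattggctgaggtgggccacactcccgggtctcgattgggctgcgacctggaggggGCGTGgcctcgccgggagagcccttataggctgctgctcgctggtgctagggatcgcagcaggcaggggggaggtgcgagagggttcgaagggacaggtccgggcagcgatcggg
Pfkp: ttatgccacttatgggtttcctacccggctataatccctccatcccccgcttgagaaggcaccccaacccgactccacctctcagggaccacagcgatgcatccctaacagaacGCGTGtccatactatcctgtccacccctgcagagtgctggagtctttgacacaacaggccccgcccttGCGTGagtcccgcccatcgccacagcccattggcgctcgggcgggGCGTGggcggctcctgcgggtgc
Ankrd37: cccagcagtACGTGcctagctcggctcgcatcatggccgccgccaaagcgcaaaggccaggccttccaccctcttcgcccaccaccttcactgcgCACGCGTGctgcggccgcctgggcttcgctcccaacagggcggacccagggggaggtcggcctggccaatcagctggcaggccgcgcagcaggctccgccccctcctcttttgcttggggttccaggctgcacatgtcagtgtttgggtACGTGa
Car9: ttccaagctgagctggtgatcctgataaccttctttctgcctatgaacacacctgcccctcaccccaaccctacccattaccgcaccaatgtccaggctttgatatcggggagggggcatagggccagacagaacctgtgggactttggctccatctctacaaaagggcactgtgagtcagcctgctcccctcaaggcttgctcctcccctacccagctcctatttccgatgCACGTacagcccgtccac

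In these windows the motif began 229 bases before the start of Egln3 and 50 bases before that of Aldoc. Ddit4 held matches at 187 and 115 bases, Pfkp at 136, 68 and 23 bases, and Ankrd37 at 241, 155, 152 and 6 bases. Car9, which did not pass, held one as well, 18 bases before its start. Over the longer RefSeq window of 250 bases before to 50 after the start, motifs were counted for the 32 of 36 genes that had such a window. No window was available for Slc2a3, Bnip3l, Ndrg1 and Epas1. Either motif lay in a window of 23 of the 25 genes that rose, of 6 of the 6 that did not pass, and of Hif1a, the 1 that fell. Counted by window, this was 28 of 32 and 7 of 11, and 43.8% of all 32851 windows held either motif. The ACGTG form alone was found for 19 of the 25 genes that rose, for 3 of the 6 that did not pass and for Hif1a. Counted by window, it lay in 21 of 32 and 4 of 11, and in 19.6% of all windows. By role, it was found for 8 of the 13 glycolytic enzymes that rose. It was found for 9 of the 9 hypoxia targets outside glycolysis that rose and for 1 of the 3 that did not pass. GCGTG was found in 32.4% of all windows. The members' windows had a median GC content of 62.8%, and those of the hypoxia targets outside glycolysis that rose 70.3%, against 52.7% in all windows; among windows of at least 60% GC, 26.5% held ACGTG, 59.2% GCGTG and 69.2% either. No test was run on these counts.

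Among the 14 measured glycolytic enzymes, 13 rose, 0 fell and only Hk1 did not pass, with changes between 0.07 and 3.05 and a median of 0.58. The first step of the pathway, phosphorylation of glucose by hexokinases, was represented by Hk1, Hk2 and Hk3. Hk2, the inducible hexokinase, averaged 8.82 ± 0.17 with PLX3397 and 8.24 ± 0.16 with vehicle (SD, n = 3 each) and rose by 0.58 (SE 0.11, adjusted p = 0.0020, limma). Hk3, the hexokinase of myeloid cells, averaged 8.77 ± 0.09 with PLX3397 and 8.16 ± 0.09 with vehicle and rose by 0.60 (SE 0.09, adjusted p = 2.93e-04).

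For Hk1, the ubiquitous hexokinase, the answer depended on the probe set. The brightest one read 10.86, 10.91 and 10.74 on the PLX3397 arrays and 10.79, 10.75 and 10.77 on the vehicle arrays, a change of 0.07 (SE 0.08, adjusted p = 0.548), and its groups overlap. It is annotated by 1 accession and by no RefSeq transcript. The other single-symbol probe set of Hk1, which is linked to RefSeq transcripts, read 8.83, 9.20 and 8.94 with PLX3397 and 7.77, 7.77 and 7.86 with vehicle. Its groups are far apart, with a change of 1.19 (SE 0.10, adjusted p = 8.87e-06 when RefSeq-linked probe sets represent each gene, an alternative chosen after seeing the data). A further 16 probe sets that name Hk1 also name the ribosomal protein gene Rpl17, and all 16 fell, by a median change of -0.36, so their values cannot be assigned to Hk1. The direction for Hk1 is therefore uncertain.

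Phosphofructokinase, the committing step, is built from the products of Pfkl, Pfkm and Pfkp. The platelet-type isozyme gene Pfkp read 9.37, 9.49 and 9.34 on the PLX3397 arrays and 7.58, 7.60 and 7.59 on the vehicle arrays. The replicates of each group lay close together and the groups stood far apart, a 3.51-fold rise (log2 change 1.81, SE 0.08, adjusted p = 8.65e-08). The liver-type Pfkl rose by 0.34 (SE 0.12, adjusted p = 0.0412), a call lost when arrays were centred on their medians (0.21, adjusted p = 0.191). The Pfkl call was also lost without PLX3397 replicate 2 (0.22, adjusted p = 0.123), vehicle replicate 1 (0.35, adjusted p = 0.0890) or vehicle replicate 2 (0.28, adjusted p = 0.144). The muscle-type Pfkm, at 5.23 ± 0.09 with PLX3397 and 4.69 ± 0.07 with vehicle, rose by 0.53 (adjusted p = 5.95e-04).

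Aldolase splits the resulting sugar phosphate. Aldoc, the isozyme known from brain, read 8.07, 8.23 and 7.92 with PLX3397 and 4.53, 5.27 and 5.29 with vehicle. Vehicle replicate 1 was the lowest of the 6 arrays, and every PLX3397 array lay above every vehicle array. Aldoc rose 8.27-fold, the largest change of any glycolytic enzyme measured (log2 change 3.05, SE 0.18, adjusted p = 7.56e-07). Aldoa, the main aldolase of most tissues, read 11.78, 11.90 and 11.79 with PLX3397 and 11.54, 11.53 and 11.54 with vehicle, a rise of 0.28 (adjusted p = 0.0154). The Aldoa change became -0.05 after quantile normalisation (adjusted p = 0.667) and 0.15 under median centring (adjusted p = 0.168), so the call was lost under both.

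The enzymes of the lower pathway also rose. Pgam1, a phosphoglycerate mutase, averaged 11.91 ± 0.11 with PLX3397 and 10.92 ± 0.06 with vehicle, a change of 0.99 (SE 0.09, adjusted p = 1.03e-05). Pgk1, which makes the first ATP of the pathway, averaged 11.37 ± 0.11 with PLX3397 and 10.54 ± 0.05 with vehicle, a change of 0.83 (SE 0.09, adjusted p = 3.18e-05). The neuronal-type enolase gene Eno2 rose by 0.62 (adjusted p = 0.0020) and triosephosphate isomerase, Tpi1, by 0.48 (adjusted p = 0.0070). The lactate dehydrogenase genes changed less firmly: Ldha by 0.29 (adjusted p = 0.0245) and Ldhb by 0.58 (adjusted p = 0.0369). Ldha became -0.02 after quantile normalisation (adjusted p = 0.867), Tpi1 became 0.28 (adjusted p = 0.0768) and Ldhb 0.52 (adjusted p = 0.101). Under median centring Ldha (0.16, adjusted p = 0.193) and Ldhb (0.44, adjusted p = 0.0866) also lost their calls, while Tpi1 kept its call (0.34, adjusted p = 0.0355). With single arrays left out, Ldha kept its direction but lost its call without PLX3397 replicate 2 (0.22, adjusted p = 0.0753) or vehicle replicate 1, 2 or 3 (0.29, 0.28 and 0.30, adjusted p = 0.0604, 0.0705 and 0.0577). Ldhb lost its call without PLX3397 replicate 3 (0.35, adjusted p = 0.0793) or vehicle replicate 2 or 3 (0.45 and 0.59, adjusted p = 0.147 and 0.0824). Gapdh could not be measured alone: the 25 probe sets that name it together with other symbols changed by 0.01 to 0.15, with 0 called by limma over all probe sets.

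Of the 6 transporters and flux regulators, 4 rose and 2 did not pass. Slc2a1, the glucose transporter GLUT1, read 11.38, 11.61 and 11.54 on PLX3397 arrays and 10.07, 10.05 and 10.13 on vehicle arrays. Every PLX3397 value exceeded every vehicle value, a 2.69-fold rise (log2 change 1.43, SE 0.09, adjusted p = 8.17e-07). Slc16a3, the lactate exporter MCT4, averaged 10.17 ± 0.16 with PLX3397 and 9.19 ± 0.07 with vehicle and rose by 0.99 (SE 0.10, adjusted p = 2.03e-05).

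The high-affinity glucose transporter GLUT3, Slc2a3, averaged 4.89 ± 0.03 with PLX3397 and 4.11 ± 0.13 with vehicle and rose by 0.78 (adjusted p = 5.13e-05). The Pfkfb genes encode enzymes that make or remove the activator of phosphofructokinase. Pfkfb4 rose by 0.28 (adjusted p = 0.0162), a call lost under median centring (0.15, adjusted p = 0.184) and without PLX3397 replicate 1 (0.24, adjusted p = 0.0651) or vehicle replicate 2 (0.27, adjusted p = 0.0514). Pfkfb3 read 8.42, 9.16 and 8.56 with PLX3397 and 8.55, 8.36 and 8.38 with vehicle, and its groups overlap (change 0.28, 95% confidence interval -0.09 to 0.66, adjusted p = 0.218). Without PLX3397 replicate 2 the Pfkfb3 change was 0.06 (adjusted p = 0.691), and without PLX3397 replicate 1 it was 0.43 (adjusted p = 0.0743). Pdk1, the gene of a pyruvate dehydrogenase kinase, changed by 0.13 (95% confidence interval -0.17 to 0.44, adjusted p = 0.492).

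Of the 14 hypoxia targets outside glycolysis, 11 rose, 0 fell and Car9, Adm and Kdm3a did not pass; the median change was 0.77, with a range of -0.14 to 3.83. Egln3 and Egln1 encode HIF prolyl hydroxylases and are themselves HIF targets. Egln3 read 9.66, 10.39 and 9.93 with PLX3397 and 6.13, 6.18 and 6.18 with vehicle. The vehicle arrays were nearly identical and all PLX3397 arrays lay far above them, a 14.2-fold rise and the largest among the 36 genes (log2 change 3.83, SE 0.16, adjusted p = 5.67e-08). Egln1, the main oxygen-sensing hydroxylase, rose by 0.77 (SE 0.12, adjusted p = 5.92e-04).

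Ddit4, an inhibitor of mTORC1 signalling, read 6.83, 7.80 and 6.83 with PLX3397 and 4.58, 4.75 and 5.02 with vehicle. PLX3397 replicate 2 stood above the other treated arrays, and all 3 exceeded vehicle; the rise was 5.17-fold (log2 change 2.37, SE 0.23, adjusted p = 2.10e-05). Ankrd37, an ankyrin repeat protein gene, read 7.26, 8.02 and 7.25 with PLX3397 and 5.82, 5.98 and 5.62 with vehicle, again highest on replicate 2, and rose 3.26-fold (log2 change 1.70, SE 0.19, adjusted p = 5.10e-05). Ero1a, an oxidase that forms disulfide bonds in the endoplasmic reticulum, read 10.25, 11.00 and 10.57 with PLX3397 and 9.02, 9.03 and 9.14 with vehicle. Its groups stood apart and it rose 2.92-fold (log2 change 1.54, SE 0.16, adjusted p = 2.84e-05).

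Smaller rises were found for genes of collagen hydroxylation and mitochondrial turnover. The collagen prolyl hydroxylase subunit genes P4ha1 and P4ha2 rose by 0.73 (adjusted p = 8.81e-04) and 0.94 (adjusted p = 0.0048). Ndrg1, a stress-response gene, rose by 0.89 (adjusted p = 9.74e-04). The mitophagy receptor genes Bnip3 and Bnip3l rose by 0.77 (adjusted p = 0.0077) and 0.35 (adjusted p = 0.0316), and Higd1a, a mitochondrial inner membrane protein gene, by 0.59 (adjusted p = 0.0022). Bnip3l was not called under median centring (0.21, adjusted p = 0.160), nor without PLX3397 replicate 2 (0.22, adjusted p = 0.0761) or vehicle replicate 1, 2 or 3 (0.33, 0.35 and 0.37, adjusted p = 0.0888, 0.0804 and 0.0629). The dimmer probe sets moved less for Bnip3 (0.37, adjusted p = 0.265 over all probe sets) and Higd1a (0.14, adjusted p = 0.339).

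The 3 targets that did not pass had overlapping groups. Car9, the carbonic anhydrase of hypoxic tumour cells, read 4.40, 4.84 and 4.65 with PLX3397 and 4.95, 4.75 and 4.61 with vehicle (change -0.14, 95% confidence interval -0.42 to 0.14, adjusted p = 0.418). Adm, the gene of the vasodilator peptide adrenomedullin, read 4.41, 5.41 and 4.95 with PLX3397 and 4.62, 5.13 and 5.10 with vehicle (change -0.03, interval -0.53 to 0.48, adjusted p = 0.942). Kdm3a, a histone demethylase, changed by -0.08 (interval -0.34 to 0.19, adjusted p = 0.666). These intervals exclude rises as large as those of Egln3, Aldoc or Ddit4.

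The transcript of Hif1a, the alpha subunit of HIF, was the only member that fell. It read 9.61, 9.61 and 9.32 with PLX3397 and 9.84, 9.90 and 9.89 with vehicle, with no overlap between groups. The change was -0.36 (SE 0.10, adjusted p = 0.0130). Epas1, the gene of the related subunit HIF-2 alpha, changed by 0.12 (SE 0.14, adjusted p = 0.536).

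**Figure D2:**
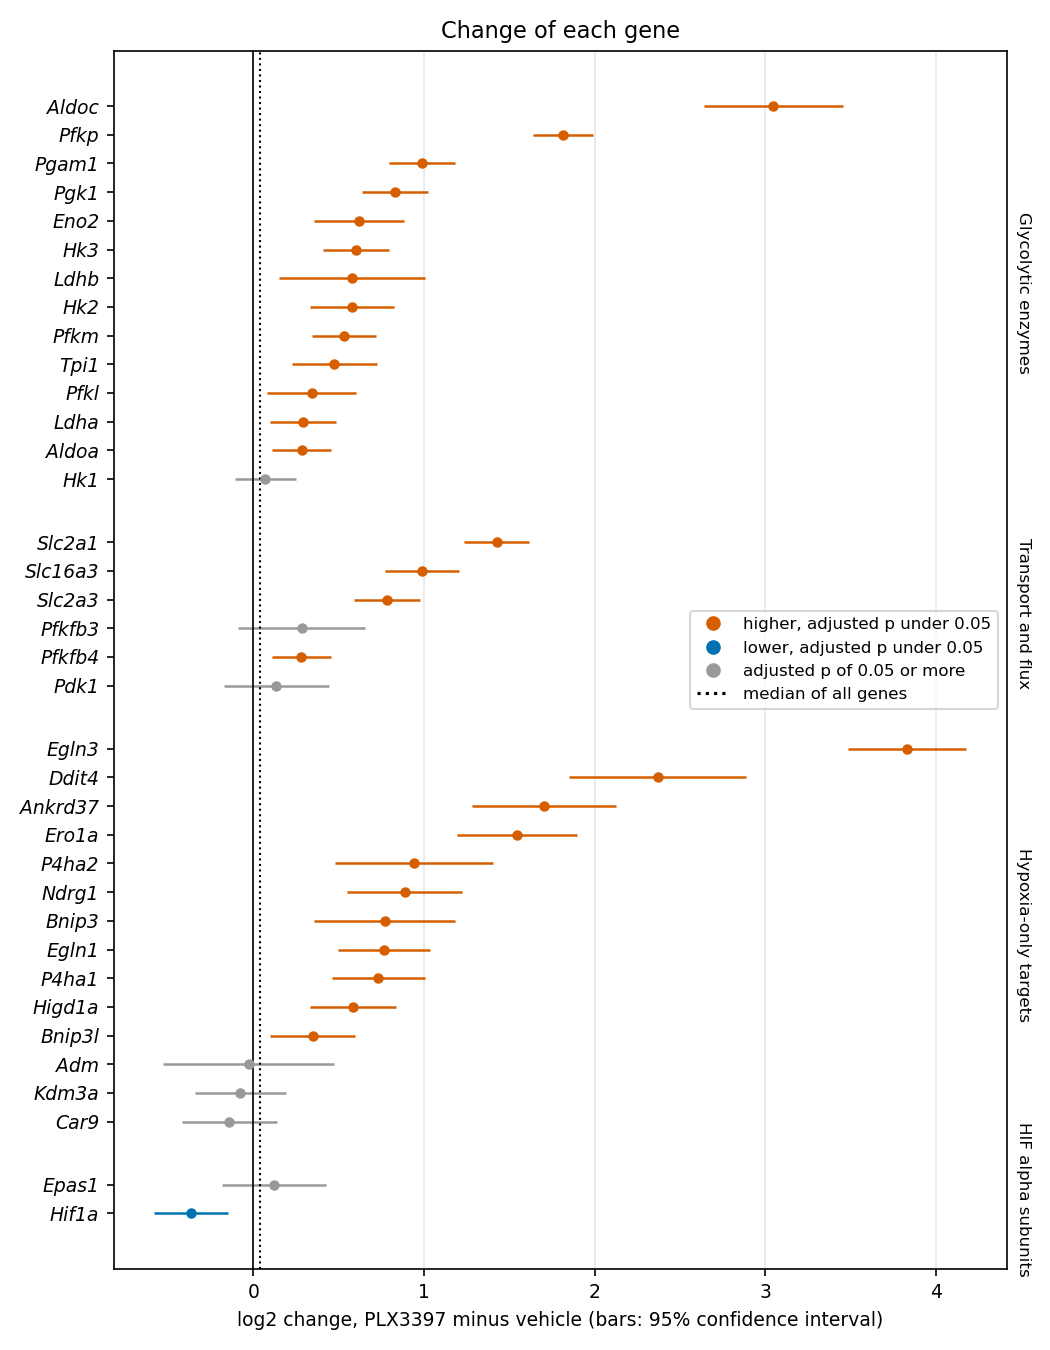
Log2 change, PLX3397 minus vehicle, of each of the 36 measured genes with its 95% confidence interval (limma, 3 arrays a group); colour marks genes past an adjusted p of 0.05 and the dotted line the median of all genes, 0.04. Egln3 at 3.83 and Aldoc at 3.05 lie farthest right, and Hif1a at -0.36 is the only gene called lower.

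Set side by side, 13 of 14 glycolytic enzymes and 11 of 14 hypoxia targets outside glycolysis rose, against 19.6% of all genes. Of the 7 rises of at least 1 log2 unit, 4 were hypoxia targets, 2 were enzymes and 1 was the transporter gene Slc2a1. Among all 19938 genes, 661 rose that much. No test between the lists was run. Under quantile normalisation 9 of the enzymes and 11 of the hypoxia targets rose, against 16.7% of all genes. Under median centring 9 and 10 rose, against 11.4%. Median centring shifted the median change of all genes to -0.09; the median of the 36 was then 0.46, with 22 genes higher against 11.4% of all genes.

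Whether related genes changed unequally was asked with their log2 ratio within each array, for 12 pairs. An exact two-sided permutation test over 3 against 3 arrays cannot give a p below 0.1, which is 0.150 after adjustment over the pairs, so no pair could pass, and the ratios serve as descriptions. The groups stood apart for 8 of the 12 pairs. No such share was computed for ratios of other genes, and for single genes the groups stood apart in 49.3% of all genes. The Egln3 to Egln1 ratio differed by 3.06, Aldoc to Aldoa by 2.76 and Pfkp to Pfkl by 1.47, each higher on every PLX3397 array (exact p = 0.1 for each). The ratio of Slc2a3 to Slc2a1 was lower on every PLX3397 array (-0.64, exact p = 0.1), as was that of Bnip3l to Bnip3 (-0.42, exact p = 0.1). Averaging probe sets made the Bnip3l to Bnip3 difference -0.23 (exact p = 0.2), since the dimmer Bnip3 probe set changed by 0.37, near the 0.35 of Bnip3l. Leaving out arrays gave -0.51 to -0.30. Epas1 to Hif1a differed by 0.49 (exact p = 0.1). Hk2 and Hk3 against Hk1 differed by 0.51 and 0.53 (exact p = 0.1 for each), which turned to -0.61 and -0.58 with the RefSeq-linked Hk1 probe set. The groups overlapped for Pfkm to Pfkl (0.19, exact p = 0.4), Ldhb to Ldha (0.29, exact p = 0.5), P4ha2 to P4ha1 (0.21, exact p = 0.6) and Pfkfb4 to Pfkfb3 (0.00, exact p = 1.0).

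**Figure D3:**
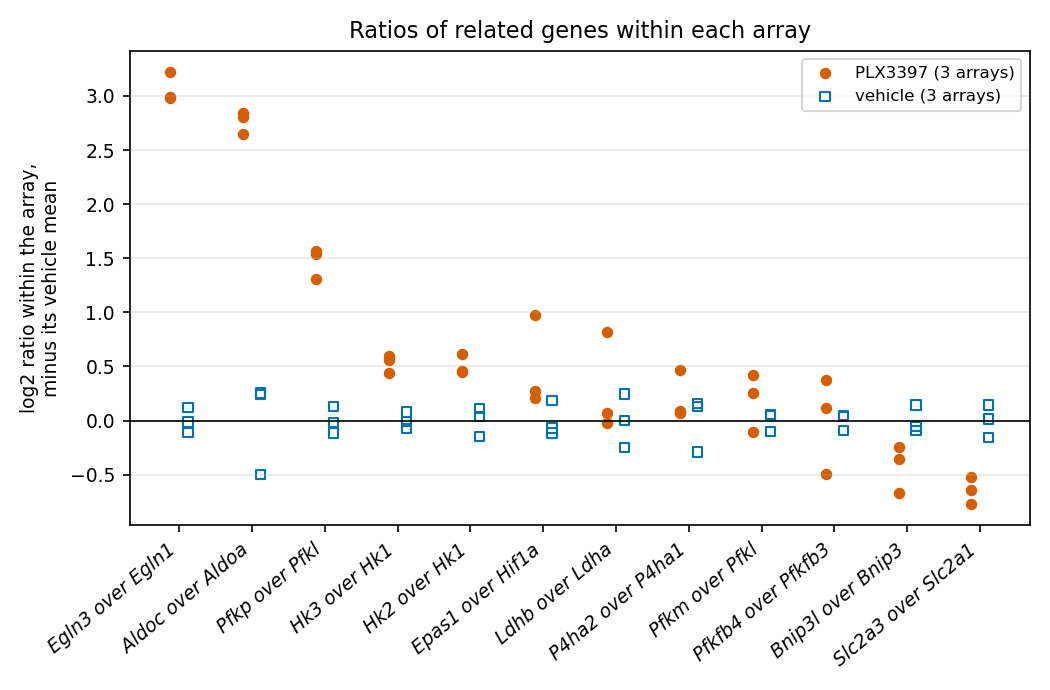
Log2 ratio of 2 related genes within each array, less the mean ratio of the vehicle arrays, for 12 pairs; filled circles are PLX3397 arrays and open squares vehicle arrays (3 each). The Egln3 over Egln1 and Aldoc over Aldoa ratios lie 3.06 and 2.76 above the vehicle mean on average, and the groups overlap for 4 pairs.

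The treated arrays were not alike, and their spread was wider for the hypoxia targets than for the glycolytic enzymes. PLX3397 replicate 2 was the highest of the 3 treated arrays for 14 of the 14 hypoxia targets outside glycolysis and 11 of the 14 glycolytic enzymes, against 69.4% of the 1975 bright genes and 46.2% of all genes. The median deviation of the hypoxia targets from the mean of the treated arrays was -0.30, 0.35 and -0.05 on replicates 1, 2 and 3. For the glycolytic enzymes it was -0.06, 0.11 and -0.06, near the -0.02, 0.08 and -0.06 of the 1975 bright genes. Without PLX3397 replicate 2, 25 members rose, 10 of the hypoxia targets and 11 of the enzymes, against 16.5% of all genes. Leaving out any 1 of the 6 arrays gave 23 to 27 members higher and 1 lower, against 15.7% to 18.9% of all genes higher and 16.1% to 18.1% lower.

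**Figure D4:**
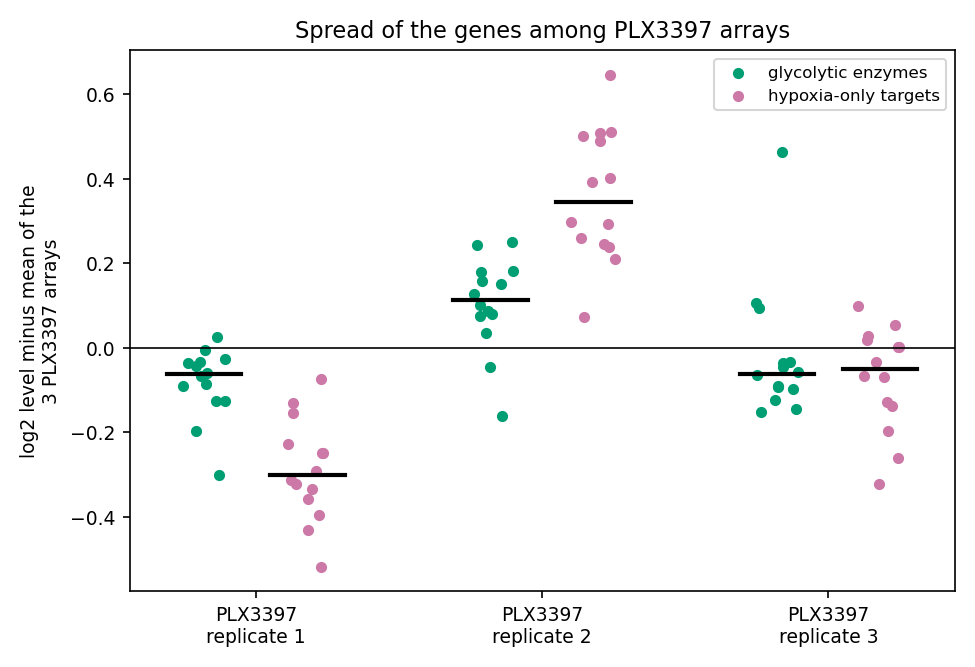
Log2 level of each glycolytic enzyme and each hypoxia target outside glycolysis on the 3 PLX3397 arrays, less its mean over them; points are genes (14 in each list) and bars the list medians. The hypoxia targets have a median of 0.35 on replicate 2 and -0.30 on replicate 1, and the glycolytic enzymes lie closer to 0.

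Each neighbouring pathway list held genes that rose and genes that fell. Among all genes, 19.6% rose and 18.3% fell, so such a split is not particular to these lists. Those shares were 16.7% and 18.6% under quantile normalisation, and 11.4% and 25.9% under median centring. Of 18 further glycolysis and sugar transport genes, 6 rose and 3 fell, with a median of 0.15; the split was 4 and 4 under quantile normalisation and 3 and 5 under median centring. Pkm, the pyruvate kinase of most tissues, rose by 0.59 (adjusted p = 6.15e-04) and the sugar transporter gene Slc2a6 by 0.56 (adjusted p = 0.0069). Slc16a7, the monocarboxylate transporter MCT2, had a change of -1.97 (adjusted p = 1.15e-06). Gpd2, the mitochondrial glycerol phosphate dehydrogenase that passes cytosolic reducing equivalents to the respiratory chain, had a change of -1.64 (adjusted p = 1.23e-07).

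Of 12 genes for the entry of pyruvate into mitochondrial metabolism, 2 rose and 3 fell, or 3 and 2 under quantile normalisation. Dld, a subunit shared by mitochondrial dehydrogenase complexes, fell (-0.98, adjusted p = 2.07e-04), as did Pdhx (-0.54, adjusted p = 4.61e-04), while the kinase gene Pdk2 (0.87, adjusted p = 5.90e-05) and pyruvate carboxylase, Pcx (0.75, adjusted p = 2.02e-04), rose. Of 16 TCA cycle genes 5 rose and 3 fell, with a median of 0.02, and 5 fell under median centring. Fumarase, Fh1 (-0.69, adjusted p = 2.86e-04), and Idh3g (-0.59, adjusted p = 0.0026) fell, and Sdhd (0.58, adjusted p = 3.96e-04) and Dlst (0.57, adjusted p = 2.43e-04) rose.

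Of 7 pentose phosphate genes, 2 rose and 2 fell, led by Pgd (0.81, adjusted p = 3.22e-05) and Pgls (-0.61, adjusted p = 0.0013). Among 13 gluconeogenesis and glycogen genes, 4 rose and 2 fell (1 under quantile normalisation). The largest rises were those of a glycogen phosphorylase, Pygl (1.35, adjusted p = 7.06e-06), a glycogen synthase, Gys1 (1.29, adjusted p = 2.67e-05), and a phosphoglucomutase, Pgm1 (1.29, adjusted p = 1.12e-04). Other genes of glycogen metabolism in the list, named after their values were seen, were not called higher: the phosphorylase Pygb (0.05, adjusted p = 0.710), the branching enzyme Gbe1 (0.06, adjusted p = 0.819) and Pgm2 (-0.06, adjusted p = 0.628) did not pass, and Ugp2, which makes UDP-glucose, fell (-0.33, adjusted p = 0.0159).

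Among 13 other regulators of the HIF pathway, 2 rose (15.4%) and 5 fell, with a median of -0.11. Among all genes, 19.6% rose and 18.3% fell. Under median centring 2 rose and 7 fell, against 11.4% and 25.9% of all genes. The largest falls were those of Eloc (-1.18, adjusted p = 5.84e-06), Cul2 (-0.83, adjusted p = 2.26e-05), Cited2 (-0.71, adjusted p = 5.31e-05), whose product competes with HIF for its coactivators, and Elob (-0.60, adjusted p = 0.0027). Eloc, Elob and Cul2 encode parts of the ubiquitin ligase that acts on HIF alpha; 2 other parts of it, Vhl (0.10, adjusted p = 0.551) and Rbx1 (0.17, adjusted p = 0.180), did not pass. Arnt2, a partner subunit (0.58, adjusted p = 0.0012), and Hif1an, an asparagine hydroxylase that acts on HIF alpha (0.45, adjusted p = 0.0038), were the 2 that rose. Vhl, Rbx1, Arnt2 and Hif1an were named after their values were seen. These are transcript levels, and HIF protein was not measured.

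Of 25 other genes known to be induced by hypoxia, 14 rose (56.0%) and 5 fell, with a median of 0.42. Among all genes, 19.6% rose and 18.3% fell. Arg1, the arginase of alternatively activated macrophages, averaged 10.76 ± 0.39 with PLX3397 and 5.19 ± 0.19 with vehicle (change 5.57, adjusted p = 1.10e-08). Bhlhe40, a transcriptional repressor gene, changed by 4.05 (adjusted p = 2.54e-09), the inducible nitric oxide synthase Nos2 by 3.58 (adjusted p = 1.56e-08) and the lipid droplet protein gene Hilpda by 3.33 (adjusted p = 1.24e-07). The 5 that fell, named after their values were seen, were Lox (-2.36), Tfrc (-1.36), Sap30 (-1.16), Plin2 (-0.49) and Plod1 (-0.35).

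The labelled cell type was checked against markers. Of 9 measured macrophage markers, 8 lay above background, and the list's mean level was 9.83 to 9.96 with PLX3397 and 9.90 to 9.91 with vehicle; 2 rose (Itgam, 0.97; Cd14, 0.55) and 3 fell (Fcgr1, -0.79; Adgre1, -0.42; Mertk, -0.37). Csf1r averaged 11.05 ± 0.11 with PLX3397 and 10.96 ± 0.02 with vehicle (adjusted p = 0.441). The mean level of the endothelial markers was higher, at 4.77 to 4.97 with PLX3397 and 4.25 to 4.31 with vehicle. Of the 12, 6 rose (5 under either other scaling), led by Kdr (1.70), Pecam1 (1.60) and Vwf (1.30), and 6 did not pass. Of 13 hepatocyte and hepatoma markers only Trf rose (2.85) and 0 fell (1 under quantile normalisation and 2 under median centring), Alb was at background in both groups, and the list mean was 4.21 to 4.32 with PLX3397 and 3.96 to 4.08 with vehicle.

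Of 11 neutrophil markers, 3 rose and 1 fell, at list means of 4.29 to 4.40 with PLX3397 and 4.21 to 4.31 with vehicle. The split was 1 and 2 under median centring. S100a8 rose by 1.52 and Csf3r changed by -1.55. The others of the 3 that rose, Ly6g (0.33) and Ltf (0.28), were at background on every array, as were Ngp, Cxcr2, Retnlg and Elane. Of 4 B cell markers 3 rose, of which only Cd79b (0.62) lay above background, at means of 3.78 to 3.89 with PLX3397 and 3.51 to 3.53 with vehicle. Of 10 fibroblast and stellate cell markers 0 rose and 2 fell (Col1a1, -0.60; Col1a2, -0.43), at 5.004 to 5.72 with PLX3397 and 5.01 to 5.34 with vehicle. Of 6 T cell, 5 NK cell, 5 dendritic cell and 4 erythroid markers, 1, 0, 1 and 0 rose and 0 fell, while under both other scalings the T cell list had 0 higher and 1 lower. Their mean levels were 3.48 to 3.58, 3.25 to 3.29, 3.64 to 3.70 and 3.50 to 3.62 with PLX3397, and 3.45 to 3.50, 3.13 to 3.14, 3.46 to 3.50 and 3.35 to 3.47 with vehicle, close to or under the background level. The part of these other cell types in the rise of the hypoxia and glycolysis genes was not tested.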

How the data were processed

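The table deposited by the authors holds a log2 value for each of 28941 probe sets on each of 6 arrays. MAS5 is named, without version or role, per the submitters' processing notes; the sources used here do not give the summarisation or the scaling between arrays. The logarithm's base was judged by the value range of 1.57 to 13.5. Medians per array were 4.32 to 4.35 in the PLX3397 group and 4.21 to 4.25 in the vehicle group, so values were used as deposited. The platform annotation gave 21789 probe sets 1 symbol, 1621 several and 5531 none; 21698 matched a current gene record and 0 were renamed. The brightest probe set stood for each gene. There was more than 1 to choose from for 999 of 19938 genes and 7 of the members.

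Groups and replicate numbers came from the sample titles. The description field also carries second names, IL4 on treated samples and LPS with interferon-gamma on vehicle samples, which disagree with the titles and were not used. The 2-sided group effect was estimated by limma 3.58.1 (R 4.3.3, lmFit then eBayes) with no covariate, and Benjamini-Hochberg adjustment ran over all genes with a threshold of 0.05. The fit was tested on simulated data. The background level of an array was the value that 95% of its 1194 odorant and pheromone receptor genes stay under, 3.56 to 3.58 with PLX3397 and 3.52 to 3.53 with vehicle. The number of arrays limits the precision. Batches were not tested, as scanner files were not used here.

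The members, gene lists and marker lists were chosen with earlier results of these data known. Every member was named, with the 2 to 4 largest called changes of each neighbouring pathway list, Csf1r, the macrophage markers, and up to 3 called genes of each other marker list. Same-numbered replicates did not deviate together (r = -0.01, 0.008 and -0.013 across genes), so the numbers were not taken to pair samples. Promoter windows came from RefSeq on GRCm38.p6; protein sequences were not used here, and a planned comparison of protein identity was not run. Alternatives covered scaling, filters on dim genes, the variance model, array weights, probe set choice, a stricter threshold, a replicate block and each array left out. Figures and counts used pandas 2.3.3, scipy 1.17.1 and matplotlib 3.10.9.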

Additional observations from a re-analysis of the deposited data

Results flagged for a closer look

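The RefSeq-linked probe set of Hk1, which stood for no gene in the comparisons because a brighter one exists, showed a signal above the vehicle level. Its change was 1.19 on the log2 scale, with all 3 PLX3397 arrays above all 3 vehicle arrays, while the brighter probe set changed by 0.07.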

How the results depend on the processing

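Across 17 other settings, 564 of 612 comparisons of a member with its reported value kept direction and side of the threshold, 34 lost the call, 2 gained one and 12 changed sign; 23 of the 36 members kept both in every setting. The cause of these changes was not tested. Quantile normalisation turned Hk1 (-0.129), Aldoa (-0.0466), Ldha (-0.0215) and Kdm3a (0.0274), and the ratio of Pfkfb4 to Pfkfb3 (0.110). Median centring turned Hk1 (-0.0647) and Epas1 (-0.0134), lowered the median change of glycolytic enzymes to 0.444 and of transporters and flux regulators to 0.398, and gave 2282 genes higher in place of 3900, so that 30.6% of calls were higher in place of 51.7%. An adjusted p under 0.01 left 2475 genes higher, 22 members higher and 0 lower, as Hif1a has an adjusted p of 0.0130. Averaging probe sets turned the ratios of Hk2 to Hk1 (-0.0498) and Hk3 to Hk1 (-0.0245), and the RefSeq-linked probe set, chosen after seeing the data, turned both (-0.608 and -0.583).

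With each array left out in turn, Adm lay between -0.271 (without PLX3397 replicate 2) and 0.233 (without PLX3397 replicate 1), Kdm3a between -0.223 and 0.0013, Pdk1 between -0.0085 and 0.292, Epas1 between -0.0269 and 0.220, Pfkfb3 between 0.0602 and 0.432, and Car9 between -0.247 and -0.0285; none of them passed the threshold in any of these fits. The ratio of Pfkfb4 to Pfkfb3, where leaving out arrays was chosen after seeing the data, lay between -0.189 and 0.242.

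With the replicate number as a block, 27 members rose and 1 fell, Pfkl lost its call (adjusted p = 0.0663) and 3646 genes were higher; the samples share only a number, and the block changed no other member's call. Precision is limited by the 3 arrays a group.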
